A study of Mus musculus with 18 samples.

Results

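The kidney's own gene program was described from the 9 chow libraries of a mouse RNA-seq series of 18: 3 libraries of kidney were set against the mean of 3 of heart and 3 of liver. The libraries are those of 1 diet by their labels, and the rule that picks them uses no measured value. The kidneys, hearts and livers came from wild type (WT) C57BL/6J mice, an inbred laboratory strain, that stayed on standard chow for 21 days from 4 weeks of age, so all were 7 weeks old. No allele or agent distinguishes the 3 groups, which differ in organ alone, and the labels call the libraries biological replicates without saying whether 1 animal gave several organs. The other 9 libraries are the same organs from mice on a ketogenic diet, and they enter here only as a second set of organs. Sex is not labelled. The Y-linked Ddx3y had 990 to 1780 counts and the X-inactivation transcript Xist at most 6 counts in each of the 9 chow libraries.

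The kidney filters blood in glomeruli, whose podocytes form the filter, and then recovers most of the filtered water, salt, sugar, amino acids and protein along a tubule. The proximal tubule takes up the bulk of it and secretes organic ions, the thick ascending limb takes up salt without water, the distal and connecting tubule adjust sodium, calcium and magnesium, and the collecting duct sets water, potassium and acid through principal and intercalated cells. The organ also makes renin, erythropoietin and active vitamin D, and it makes glucose. Heart and liver have none of these tubule segments, and liver shares with kidney an epithelial character and glucose production. These are extracts of organ tissue with many cell types, so fewer cells of a type and less RNA per cell cannot be told apart.

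The libraries held 17198629 to 17827991 counts in kidney, 17440795 to 22767878 in heart and 21437019 to 23835383 in liver. Levels are given as CPM, counts relative to a library size scaled by TMM, which sets the scale on the genes that most libraries share. Higher and lower mean an adjusted p under 0.05 in edgeR's quasi-likelihood test over the 15171 genes kept of 22609, with the 3 organs in 1 model. The heart libraries are not alike: heart replicate 3 held 47522 counts of Myl7, an atrial myosin light chain, against 7 and 19 in the other hearts, and the fat droplet gene Plin1 was likewise high in it alone. Traces of kidney genes differed by library as well: of 191 named enriched genes of at least 100 CPM in kidney, 31, 7 and 32 had no count in heart 1, 2 and 3, and 40, 35 and 41 had none in liver 1, 2 and 3. 

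Kidney was higher than the mean of heart and liver at 5810 of 15171 genes (38.3%) and lower at 4839 (31.9%). It was higher than heart at 5725 (37.7%) and lower at 5255 (34.6%), and higher than liver at 6229 (41.1%) and lower at 5205 (34.3%); these tests share the kidney libraries. In either direction 70.2%, 72.4% and 75.4% of genes passed against the mean, heart and liver. Kidney was higher than each of the other organs at 2958 genes (19.5%) and lower than each at 2062 (13.6%). A gene is called kidney-enriched here when it was higher than both with a log2 fold change of at least 2, which is 4-fold, over each, and kidney-depleted in the mirror case. There were 1045 enriched genes (6.89%) and 209 depleted genes (1.38%). Without heart replicate 3 there were 1177 and 216, of which 1036 and 194 were shared. Of all genes, 1651 (10.9%) stood above heart and below liver and 1883 (12.4%) below heart and above liver. The split between higher and lower depends on the scaling. With total counts in place of TMM the median gene moved by 0.722 on the log2 scale for kidney against the mean, against 0.061 with TMM, and 10574 genes were higher and 1836 lower. The shift was 0.431 against 0.053 for kidney over heart (7905 higher, 3587 lower) and 1.064 against 0.117 over liver (11243 higher, 1965 lower). On that scale 6288 genes stood above both organs, 552 below both, 862 above heart and below liver and 2430 below heart and above liver, and 1394 were enriched and 120 depleted. Directions that turn with the scaling are named below. The TMM shares over all genes given here (38.3% higher, 31.9% lower, 19.5% above both and 6.89% enriched) are the background for every list below. For list counts against heart or liver alone, or with total counts, the background is the matching number over all genes above.

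Among genes around the 4-fold limit, Tmsb15b2 stood just inside, with a log2 fold change over liver of 2.00. Nus1 and Smpdl3a stood just outside, with 2.00 over liver for Nus1 (3.999-fold) and 2.00 over heart for Smpdl3a (1.998). All 3 kidneys lay above all 6 other libraries for each of the 1045 enriched genes, and at 3272 of all 15171 genes (21.6%). The enriched genes were picked for high values in these same kidneys. Their separation and the shares of the count that come next follow largely from that choice. Enriched genes took 15.7, 16.4 and 15.4% of the count of the 3 kidney libraries, against 0.397, 0.410 and 0.598% of the hearts and 0.262, 0.278 and 0.275% of the livers. In 164 of them heart had no count, in 268 liver had none, and in 105 neither had any.

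**Figure D1:**
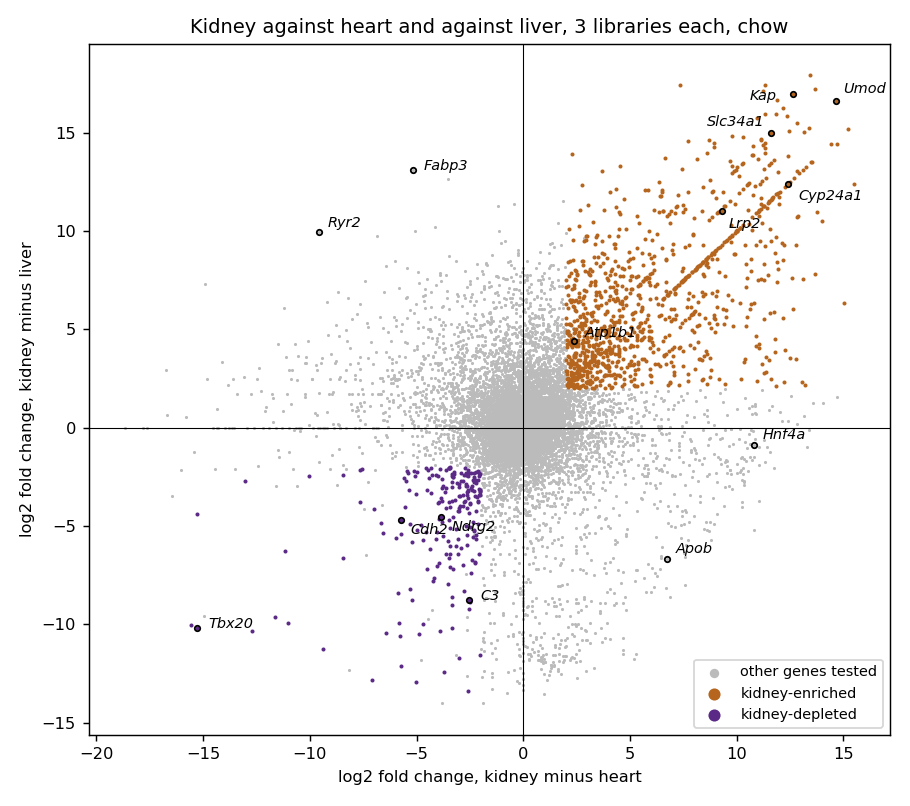
Each point is 1 of 15171 genes, placed by its fitted log2 fold change of kidney over heart (horizontal axis) and over liver (vertical axis), from 3 libraries per organ. The 1045 kidney-enriched genes fill the upper right, the 209 depleted genes the lower left, and the diagonal streak is of genes with no count in heart and liver, whose fitted values depend on the prior count.

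Kap had the highest level per transcript length among the enriched genes. This androgen-regulated protein of proximal tubule cells had 9480.2, 7839 and 8857 CPM in the kidneys, against 1.48, 2.42 and 0.326 in the hearts and 0, 0.178 and 0 in the livers. Per kilobase of transcript it stood at 14351 CPM per kb in kidney, ahead of Gpx3, the secreted glutathione peroxidase, at 6457. Next came Fxyd2, the gamma subunit of the sodium pump, at 1536, the calcium-binding S100g at 1239, the kallikrein Klk1 at 1201 and Miox, which opens the ring of myo-inositol, at 1182 CPM per kb. Below these were Slc34a1, the main phosphate transporter of the proximal brush border, at 1167, Umod at 1109, the aspartic protease Napsa at 841 and the sodium pump subunit Atp1b1 at 824 CPM per kb. Gpx3 and Atp1b1 had clear levels elsewhere. Gpx3 had 9501, 11048 and 8952 CPM in the kidneys, against 115, 130.4 and 889 in the hearts and 3.33, 3.14 and 2.81 in the livers. Heart replicate 3 was the high heart, and no heart reached a kidney.

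Umod, or uromodulin, the main protein of normal urine, had the largest ratio of kidney to the higher of the other organs, when an organ with fewer than 3 counts over its 3 libraries is taken at 3. Umod lies at chr7:126606380-126622769 on mm9, minus strand, from its first to its last exon. It had 2897, 2532 and 2792 CPM in the kidneys, against 0.110, 0.225 and 0 in the hearts and 0.0641, 0 and 0 in the livers. Its 196160 counts in kidney stood against 6 in heart and 1 in liver, and the kidney level was 24589.5-fold that of heart. Akr1c21, a hydroxysteroid dehydrogenase of a family of near-identical genes whose reads may be shared, followed at 12764-fold, and Slc12a1, the sodium-potassium-chloride carrier that loop diuretics block, at 10348-fold the heart level. S100g, Calb1 and Kcnj1 had 595, 407 and 289 CPM in kidney and 1 to 3 counts in heart, so no fold is given. The ratios of the first 3 genes rest on 4 to 8 counts in the hearts, and their order is not resolved.

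Podocyte genes split into those low or nearly absent in heart and liver and a larger group that heart also held. Nphs1 (nephrin), the backbone of the slit diaphragm, had 24.9, 33.1 and 26.1 CPM in the kidneys, against 0, 0 and 0.0408 in the hearts and 0 in all 3 livers. Of 15 genes on the podocyte list, all tested, 13 were higher than the mean of both organs and 2 lower, but 8 were higher than heart and 3 enriched. Podxl (podocalyxin), which coats podocytes and vessel walls, averaged 245 ± 28.7 CPM in kidney, 230.3 ± 52.00 in heart and 18.2 ± 1.89 in liver (SD, n = 3 each), and did not pass against heart. Wt1, the Wilms tumour factor of podocytes that also marks the epicardium, averaged 9.87 ± 0.978 CPM in kidney, 8.12 ± 0.942 in heart and 0.667 in liver, and did not pass against heart either. Plce1, a phospholipase C, was lower in kidney than in both (18.2 ± 1.68 CPM in kidney, 95.02 ± 4.02 in heart and 39.3 ± 4.97 in liver), but with total counts its log2 fold change over liver was -0.17 and did not pass. Ptpro, a podocyte phosphatase and also enriched, averaged 20.2 ± 4.38 CPM in kidney, 4.96 ± 0.861 in heart and 0.520 in liver.

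Transport genes of the proximal tubule were largely enriched. Of 20 genes of sodium, phosphate, sulphate and glucose transport, 19 were higher than the mean of the other organs, 16 higher than both and 13 enriched, with a median log2 ratio of 9.81 over heart and 3.72 over liver, against 0.05 and 0.10 for all tested genes. In these medians an organ mean under 3 counts over its 3 libraries is raised to that floor. Slc34a1 (chr13:55501009-55516056 on mm9, plus strand) had 3476, 4128 and 3180.0 CPM in the kidneys, against 0.438, 3.09 and 0.0815 in the hearts and 0.128, 0.118 and 0.0638 in the livers. Heart replicate 2 held most of the trace of it outside kidney. Slc5a2 (SGLT2), which recovers most filtered glucose, had 459.7, 568 and 452 CPM in the kidneys, against 0, 0.337 and 0 in the hearts and 0 in all 3 livers, and Slc5a1 (SGLT1), which recovers the remainder further down, averaged 85.7 ± 5.997 CPM in kidney, 0.299 in heart and 1.54 ± 0.268 in liver. The lactate and monocarboxylate carriers Slc5a8 and Slc5a12 averaged 395 and 394 CPM in kidney, and the sulphate carrier Slc13a1 averaged 138 CPM with no count in the other 6 libraries, at least 2792-fold heart.

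Some carriers of the same list were higher in liver. Slc2a2, the basolateral glucose exit carrier of both organs, averaged 138 ± 30.3 CPM in kidney, 0.178 in heart and 449 ± 90.3 in liver, and Slc26a1, a sulphate exchanger, 126 ± 17.6 CPM in kidney, 0.121 in heart and 457 ± 40.2 in liver. Slc20a2, a widely used phosphate carrier, was the 1 member lower than both (44.9 ± 4.14 CPM in kidney, 203 ± 10.4 in heart and 138 ± 1.07 in liver). Slc4a4, which moves bicarbonate out of the proximal cell, averaged 1299 ± 165 CPM in kidney, 58.8 ± 4.22 in heart and 206 ± 8.58 in liver, a log2 fold change of 4.47 ± 0.13, adjusted p = 2.48e-10, over heart and of 2.66 ± 0.12, adjusted p = 7.60e-09, over liver.

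Amino acid carriers were also largely enriched. Of 19 listed, 16 were higher than the mean, 15 higher than both and 14 enriched. The neutral amino acid carriers Slc6a19 and Slc6a18 averaged 286 and 338 CPM in kidney, and both were under 0.3 CPM in heart and liver. Tmem27 (collectrin), which brings these carriers to the surface, had 863, 903 and 794 CPM in the kidneys, against 0.329, 0.450 and 0.0408 in the hearts and 0.128, 0.355 and 0.255 in the livers. Slc7a9 and Slc3a1, the light and heavy chains of the cystine carrier, averaged 101 and 529 CPM in kidney, and liver also held Slc3a1 at 46.2 CPM. Slc7a13, another partner of Slc3a1, had 362, 405 and 356 CPM in the kidneys, against 0.0548, 0.112 and 0.0408 in the hearts and 0 in all 3 livers. No other library reached a kidney for any of these carriers. Slc7a12 averaged 48.8 CPM and had no count in heart or liver. Slc38a3, a glutamine carrier that the liver uses heavily, was lower in kidney than in both, at 33.96 ± 1.28 CPM in kidney, 74.1 ± 17.01 in heart and 2041 ± 105 in liver.

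Most genes of organic ion transport were higher in kidney. Of 27 genes, 22 were higher than the mean and 4 lower, against 38.3 and 31.9% of all genes tested. Higher than both were 17, against 19.5% of all genes, and 7 were lower than liver, against 34.3%. Slc22a12 (URAT1), the urate exchanger, had 982, 971 and 724 CPM in the kidneys, against 0.274, 0.843 and 0.0815 in the hearts and 0 in all 3 livers. Slc22a6 (OAT1), which takes drugs and toxins up from blood, had 399, 460.1 and 325 CPM in the kidneys, against 0.0548, 0.450 and 0 in the hearts and 0 in all 3 livers, and its relative Slc22a8 averaged 263 ± 31.9 CPM in kidney, 0.240 in heart and 0.0197 in liver. The cation carrier Slc22a2 averaged 219.9 ± 38.2 CPM in kidney, 0.0511 in heart and 0.0214 in liver. Slco1a6 averaged 92.7 CPM in kidney with no count in liver. Slco1b2, the uptake carrier of hepatocytes, averaged 0.355 CPM in kidney, 0.197 in heart and 1203 ± 43.3 in liver, and Abcc2, an export pump of both organs, 284 ± 31.8 CPM in kidney, 0.151 in heart and 890.1 ± 44.7 in liver.

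The machinery that takes up filtered protein was high. Lrp2 (megalin), the scavenger receptor for filtered protein, lies at chr2:69262392-69424124 on mm9, minus strand, and had 5306, 5862 and 4673 CPM in the kidneys, against 4.11, 10.3 and 10.52 in the hearts and 3.40, 2.19 and 2.17 in the livers. Its log2 fold change was 9.30 ± 0.42, adjusted p = 1.00e-08, over heart and 10.99 ± 0.46, adjusted p = 5.57e-09, over liver. Its partner Cubn (cubilin) had 1055, 1251 and 1030.2 CPM in the kidneys, against 6.63, 7.70 and 6.03 in the hearts and 0 in all 3 livers, and Amn, which carries cubilin to the surface, averaged 119 ± 15.2 CPM in kidney, 0.0323 in heart and 0.102 in liver. The hearts held a low level of Lrp2 and Cubn, and no library of theirs reached a kidney. The folate receptor Folr1 averaged 260.0 ± 33.4 CPM in kidney, 0.411 in heart and 0.126 in liver. Of 12 genes of protein uptake, 11 were higher than the mean, 10 higher than both and 9 enriched. The lysosomal protease Ctsb was the 1 lower than the mean, at 504 ± 44.7 CPM in kidney, 599.9 ± 14.3 in heart and 870.0 ± 41.4 in liver, and with total counts it was 0.16 higher than liver on the log2 scale. All 15 brush border peptidases and glycan enzymes were higher than the mean and 9 were enriched. The meprin subunit Mep1a averaged 1107 ± 128 CPM in kidney, 0.447 in heart and 0 in liver, its partner Mep1b 240.0 ± 10.98 CPM in kidney, 0.0918 in heart and 0.0837 in liver, and Ggt1, which breaks down glutathione, 598 ± 76.8 CPM in kidney, 0.242 in heart and 0.0838 in liver. Anpep and Dpp4, which hepatocytes also place on their canaliculi, were higher than heart and lower than liver, at 190.1 ± 21.7 CPM in kidney, 28.9 ± 8.60 in heart and 283 ± 34.04 in liver for Anpep and 103 ± 13.6 CPM in kidney, 12.7 ± 5.16 in heart and 174 ± 3.79 in liver for Dpp4. Over liver their log2 fold changes were -0.57 and -0.76 with TMM and 0.38 and 0.18 with total counts, and the call for Anpep was lost without kidney replicate 3 (-0.53) or liver replicate 1 (-0.47).

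**Figure D2:**
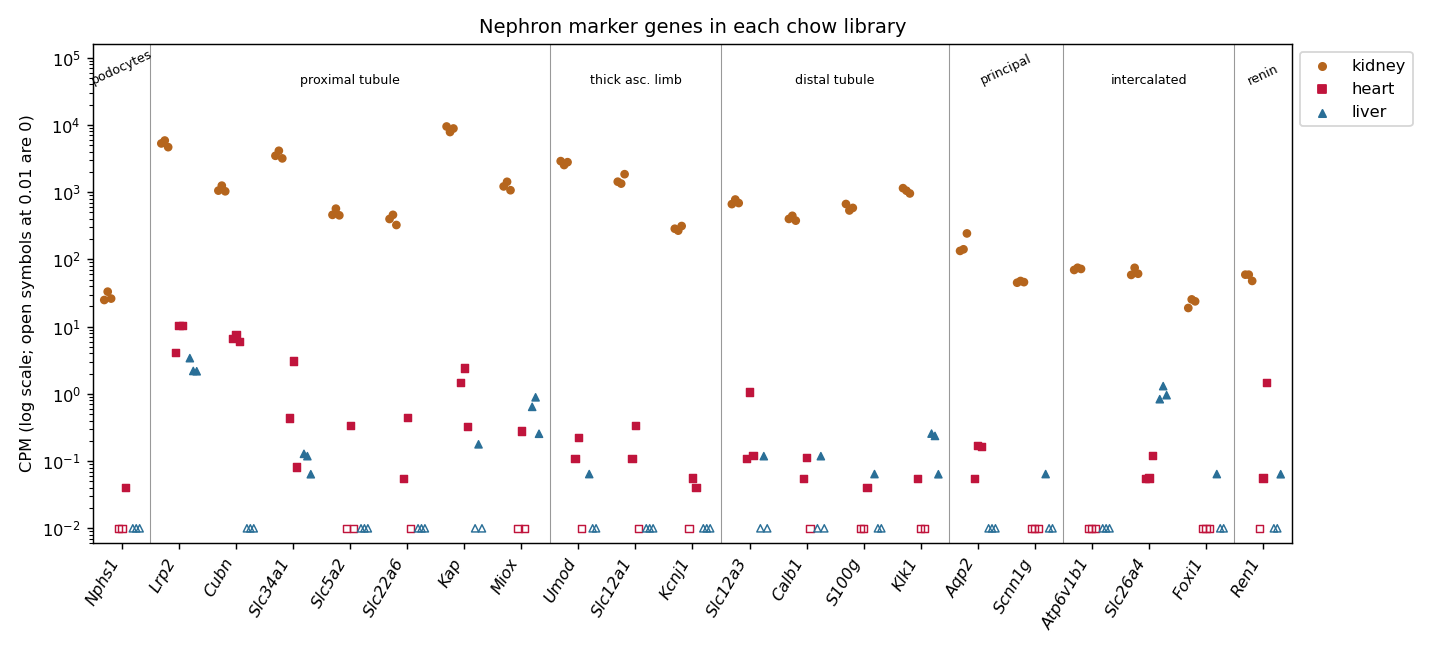
CPM (log axis) of 21 marker genes in each kidney, heart and liver library, grouped by the part of the nephron they mark, with open symbols for 0. The kidney points lie above the heart and liver points for every gene shown, and the heart value of Slc34a1 that stands highest is replicate 2.

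Genes of the thick ascending limb were mostly enriched. Of the 18 genes, 17 were higher than the mean, 16 higher than both and 15 enriched, with median log2 ratios of 9.60 over heart and 10.38 over liver. Slc12a1 had 1431, 1341 and 1851 CPM in the kidneys, against 0.110, 0.337 and 0 in the hearts and 0 in all 3 livers. Kidney 3 was the highest, as it was for Kcnj1 and Aqp2. Kcnj1 (ROMK), which returns potassium to the lumen so that the carrier can go on, had 286, 268 and 314 CPM in the kidneys, against 0, 0.0562 and 0.0408 in the hearts and 0 in all 3 livers. Bsnd (barttin), a subunit of the chloride exit channels, averaged 65.8 ± 6.24 CPM in kidney, 0.0187 in heart and 0 in liver. Egf, made in this segment, had 1629, 1761 and 1799.7 CPM in the kidneys, against 12.4, 9.95 and 14.1 in the hearts and 0.769, 0.533 and 0.893 in the livers. Casr, the calcium sensor, averaged 97.9 ± 1.84 CPM in kidney, 0.0459 in heart and 0.0197 in liver. Cldn16 and Cldn19, the pair of claudins through which calcium and magnesium pass, averaged 10.4 and 54.7 CPM. Cldn14, which closes that path, was lower than liver, at 0.0839 CPM in kidney, 0 in heart and 15.02 ± 1.19 in liver.

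The distal convoluted and connecting tubule list was higher than the mean at 18 of 18 genes and enriched at 13. Slc12a3, the thiazide-sensitive sodium chloride carrier, had 664, 777 and 689 CPM in the kidneys, against 0.110, 1.07 and 0.122 in the hearts and 0, 0.118 and 0 in the livers. S100g and Calb1, which shuttle calcium across the cell, had 667, 534 and 583 CPM in the kidneys, against 0, 0 and 0.0408 in the hearts and 0.0641, 0 and 0 in the livers, for S100g, and 400.1, 445 and 377 CPM in the kidneys for Calb1. Trpv5, the calcium entry channel, averaged 20.4 CPM, and heart and liver had no count. Kl (klotho), the co-receptor of the phosphate hormone FGF23, had 910.0, 1047 and 834 CPM in the kidneys, against 0.219, 0.674 and 0.367 in the hearts and 0.0641, 0.355 and 0.0638 in the livers. The kallikrein Klk1, one of a family of near-identical genes, had 1147, 1052 and 957 CPM in the kidneys, against 0.0548, 0 and 0 in the hearts and 0.256, 0.237 and 0.0638 in the livers. All libraries of heart and liver lay far below the kidneys for these genes. Slc8a1, the sodium-calcium exchanger, was an exception and averaged 600.0 ± 80.2 CPM in kidney, 883 ± 78.1 in heart and 7.10 ± 0.667 in liver, lower than heart, which uses it at every beat, and higher than liver. With total counts its log2 fold change over heart was -0.18 and did not pass.

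Principal cells of the collecting duct were marked by a set of genes with little or no count elsewhere. Aqp2, the water channel that vasopressin moves to the surface, had 134, 141 and 243 CPM in the kidneys, against 0.0548, 0.169 and 0.163 in the hearts and 0 in all 3 livers. The receptor of vasopressin, Avpr2, averaged 19.2 CPM, and heart and liver had no count. The sodium channel subunits Scnn1b and Scnn1g averaged 45.8 and 46.2 CPM, with 0 counts in heart and 1 in liver for each, whereas Scnn1a averaged 89.6 ± 7.49 CPM in kidney, 0.890 in heart and 33.3 ± 2.17 in liver. Hsd11b2, which inactivates glucocorticoid before it reaches the aldosterone receptor, averaged 143.2 ± 3.83 CPM in kidney, 0.295 in heart and 0 in liver. That receptor, Nr3c2, was lower in kidney than in both, at 25.9 ± 0.445 CPM in kidney, 32.8 ± 3.97 in heart and 31.7 ± 1.95 in liver. That direction turned with total counts (log2 fold changes of 0.04 over heart and 0.66 over liver), and without liver replicate 2 the call against liver was lost (-0.24). Of 17 principal cell genes, 15 were higher than the mean and 10 enriched.

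All 20 genes of intercalated cells and the proton pump were higher than both organs, and 16 were enriched, with median log2 ratios of 8.84 over heart and 8.10 over liver. The kidney-type pump subunits Atp6v1b1, Atp6v1g3 and Atp6v1c2 averaged 72.3, 35.2 and 19.99 CPM, and heart and liver had no count of any of these. Atp6v1b1 was thereby at least 1459.9-fold heart and at least 1161-fold liver. Slc26a4 (pendrin), which marks the base-secreting cells, had 58.8, 74.96 and 61.2 CPM in the kidneys, against 0.0548, 0.0562 and 0.122 in the hearts and 0.833, 1.30 and 0.956 in the livers. Foxi1, the factor that specifies intercalated cells, had 18.9, 25.4 and 23.8 CPM in the kidneys, against 0 in all 3 hearts and 0.0641, 0 and 0 in the livers. Slc4a1, the anion exchanger of acid-secreting cells, averaged 54.9 ± 5.72 CPM in kidney, 14.7 ± 5.83 in heart and 4.98 ± 1.52 in liver. It is also a red cell gene. Of 8 red cell genes tested, 6 were lower than heart, and against liver 2 were higher and 1 lower with TMM. With total counts 6 were higher and 1 lower than liver. Alas2 was the 1 red cell gene lower in kidney than in both (17.7 ± 7.51 CPM in kidney, 141 ± 27.8 in heart and 145 ± 57.6 in liver). The ammonia channel Rhcg averaged 80.5 ± 7.80 CPM in kidney, 0.0370 in heart and 0 in liver, and Car12 and Car15, carbonic anhydrases on the cell surface, 281 and 93.5 CPM in kidney.

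Claudins and aquaporins were divided between kidney and liver. Of 22 claudins counted, 14 were tested, 12 of these were higher than the mean of heart and liver, and 8 were higher than both. Cldn10, Cldn8, Cldn19, Cldn7, Cldn4 and Cldn16 were enriched, with kidney means of 179, 81.8, 54.7, 15.6, 12.2 and 10.4 CPM. Cldn2, the leaky claudin of the proximal tubule, averaged 352 ± 58.2 CPM in kidney, 0.170 in heart and 206 ± 25.7 in liver. Cldn1, Cldn3, Cldn12 and Cldn14 were lower than liver, and Cldn5, the endothelial claudin, was lower than heart. With total counts Cldn12 was 0.30 higher than liver on the log2 scale. Of 12 aquaporins 9 were tested. Aqp2, Aqp3 and Aqp6 were enriched. Aqp1, the constitutive channel of the proximal tubule that vessels also use, averaged 566 ± 33.9 CPM in kidney, 373 ± 44.3 in heart and 169 ± 11.3 in liver and was higher than both. Aqp8 and Aqp9 were liver genes here, at 0.576 CPM in kidney, 0.739 in heart and 196 ± 6.60 in liver for Aqp8 and 0.206 CPM in kidney, 0.136 in heart and 584 ± 32.5 in liver for Aqp9. Aqp4 did not pass against either organ, with values of 20.8, 17.2 and 31.8 CPM in the kidneys, against 25.6, 22.5 and 21.9 in the hearts and 18.9, 16.4 and 16.1 in the livers.

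Acid handling was divided between enriched carbonic anhydrases and glutamine genes of the liver. Of 21 genes of ammonia production and bicarbonate handling, 13 were higher than the mean, 5 lower and 8 enriched. Over all genes tested these shares were 38.3, 31.9 and 6.89%. Gls2, the glutaminase of hepatocytes, averaged 0.351 CPM in kidney, 0.361 in heart and 502 ± 30.6 in liver. Slc9a3, the sodium-proton exchanger of the brush border, averaged 85.2 ± 9.76 CPM in kidney, 0.882 in heart and 0 in liver. Car2 and Car4, carbonic anhydrases inside the cell and on its surface, averaged 237 ± 20.9 CPM in kidney, 9.35 ± 3.10 in heart and 21.3 ± 2.12 in liver for Car2 and 95.5 ± 10.9 CPM in kidney, 19.9 ± 5.42 in heart and 0 in liver for Car4. Glud1 and Glul, which release and fix ammonia, stood above heart and below liver. The call for Glul over heart was lost among the ketogenic libraries (0.07 on the log2 scale) and against a 2-fold change (0.69).

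Of 20 genes whose level in mouse kidney is known to depend on sex, 19 were tested, 17 were higher than the mean and none lower, and 8 were enriched. All 19 were higher than heart, but against liver 10 were higher and 9 lower with TMM, against 41.1 and 34.3% of all genes tested. With total counts 10 were higher and 7 lower than liver, against 11243 and 1965 of all 15171 genes. Kap is on this list. Acsm3, a fatty acid ligase, averaged 651 ± 104 CPM in kidney, 1.52 ± 2.29 in heart and 137 ± 2.99 in liver, Cyp4b1 455 ± 57.2 CPM in kidney, 24.3 ± 3.55 in heart and 25.2 ± 0.925 in liver and Odc1, the first enzyme of polyamine synthesis, 354 ± 42.8 CPM in kidney, 61.95 ± 4.99 in heart and 84.7 ± 20.6 in liver. Slco1a1 and Cyp2d9, which liver held far more of, averaged 24.3 ± 7.201 CPM in kidney, 0.0408 in heart and 662 ± 193 in liver for Slco1a1 and 40.9 ± 3.73 CPM in kidney, 0.102 in heart and 1509 ± 162 in liver for Cyp2d9. All libraries carried Ddx3y, so sexes cannot be compared here.

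Epithelial identity genes other than claudins were also high. Of 23 cadherin, keratin and epithelial genes 20 were tested, 15 were higher than the mean, 4 lower and 9 enriched. Epcam, a surface protein of epithelia, averaged 78.5 ± 13.8 CPM in kidney, 0.0182 in heart and 1.34 ± 0.507 in liver, Spint1, a protease inhibitor, 64.2 ± 2.27 CPM in kidney, 0.0543 in heart and 0.712 in liver, and the membrane protease St14 70.8 ± 7.28 CPM in kidney, 0.504 in heart and 1.08 ± 0.132 in liver. The hepatocyte keratins Krt8 and Krt18 stood above heart and below liver, at 52.6 ± 3.90 CPM in kidney, 2.77 ± 2.01 in heart and 301 ± 6.34 in liver for Krt8 and 12.7 ± 2.77 CPM in kidney, 3.12 ± 2.58 in heart and 244 ± 10.7 in liver for Krt18.

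The hormone genes ran from high to nearly silent. Ren1 (renin), made by cells at the glomerular entrance, had 59.3, 59.3 and 47.8 CPM in the kidneys, against 0, 0.0562 and 1.47 in the hearts and 0, 0 and 0.0638 in the livers. Heart replicate 3 held nearly all of the heart counts. Cyp27b1, which activates vitamin D, had 3.83, 6.52 and 4.80 CPM in the kidneys, against 0.0548, 0 and 0.0408 in the hearts and 0, 0 and 0.319 in the livers, and Cyp24a1, which inactivates it, 38.8, 33.4 and 27.97 CPM in the kidneys, against 0 in all 6 other libraries. Receptors that act on both were enriched too. Pth1r, the parathyroid hormone receptor, averaged 358 ± 65.7 CPM in kidney, 8.89 ± 1.69 in heart and 20.1 ± 0.986 in liver and Vdr, the vitamin D receptor, 166 ± 18.4 CPM in kidney, 7.84 ± 11.2 in heart and 0.0607 in liver. Epo (erythropoietin) had 4, 7 and 2 counts in the kidneys and none in the other 6 libraries, too few to be tested. Agt, the renin substrate, was higher than heart and lower than liver (62.2 ± 3.25 CPM in kidney, 5.91 ± 2.45 in heart and 1028 ± 95.5 in liver). Of 30 hormone and receptor genes 25 were tested, 15 were higher than the mean and 4 lower, and 10 were enriched.

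Among transcription factors of the nephron, 33 were in the tables and 32 tested, of which 28 were higher than the mean, 21 higher than both and 18 enriched. Pax2 and Pax8, which commit cells to the nephron lineage, had 29.6, 29.5 and 39.7 CPM in the kidneys, against 0.0548, 0 and 0 in the hearts and 0 in all 3 livers, for Pax2, and 61.7, 74.6 and 76.05 CPM in the kidneys, against 0, 0.225 and 0 in the hearts and 0.0641, 0 and 0 in the livers, for Pax8. Lhx1, Sim1 and Emx2 averaged 15.4, 30.2 and 23.6 CPM, and heart and liver had no count of any of these. Cdh16, the kidney-specific cadherin, which is not a factor but shares this pattern, had 872, 945 and 881 CPM in the kidneys, against 0.164, 0.450 and 0.408 in the hearts and 0, 0.118 and 0 in the livers. Six2, the factor of nephron progenitors, had no count in any kidney, and 14 counts in the hearts. It was not tested.

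Factors of liver and heart were ordered differently. Hnf4a, shared by kidney and liver, averaged 522 ± 96.7 CPM in kidney, 0.313 in heart and 945 ± 108 in liver, a log2 fold change of 10.81 ± 0.56, adjusted p = 1.33e-07, over heart and -0.86 ± 0.33, adjusted p = 0.04, over liver. The call against liver was lost when any 1 kidney or liver was left out (the value nearest 0 was -0.74), and with total counts the value was 0.09. All 16 genes on a list of liver factors were lower in kidney than in liver with TMM, against 34.3% of all genes tested. With total counts 13 of them were lower and 1 higher than liver, against 1965 and 11243 of all 15171 genes. Foxa2, Foxa3 and Onecut1 averaged 0.0284, 0.0981 and 0 CPM in kidney, against 35.3, 79.7 and 32.6 CPM in liver. Of 14 heart factors 12 were tested, none was higher than heart, and 11 were lower. Gata4, Gata6, Tbx20 and Hand2, which liver also held, were kidney-depleted, at 0.0426 CPM in kidney, 151 ± 10.7 in heart and 38.1 ± 2.02 in liver for Gata4, 0 CPM in kidney, 246 ± 44.8 in heart and 7.24 ± 0.901 in liver for Tbx20, 0 CPM in kidney, 41.3 ± 1.77 in heart and 8.08 ± 1.30 in liver for Hand2 and 3.52 ± 0.753 CPM in kidney, 83.6 ± 10.2 in heart and 14.6 ± 0.403 in liver for Gata6.

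Hox genes, which set position along the body axis in the embryo, were high in kidney and nearly absent from heart and liver. Of 39 Hox genes counted, 30 were tested, and all 30 were higher than the mean and than heart, 28 were higher than liver, and 28 were enriched. The Hox genes of paralog groups 9 to 11, 10 genes, had 10397 counts in kidney, 19 in heart and 0 in liver. Hoxa10 had 37.7, 34.8 and 36.3 CPM in the kidneys, against 0 in all 6 other libraries, and Hoxd8 had 56.2, 52.8 and 51.3 CPM in the kidneys, against 0.274, 0.618 and 0.978 in the hearts and 0, 0 and 0.0638 in the livers. Hoxa10 was at least 732-fold heart and at least 582-fold liver. By group, the summed level in kidney peaked at group 8 with 80.4 CPM and stayed at 73.5 and 63.7 CPM in groups 9 and 10, then dropped to 8.04 in group 11. The 6 genes of groups 12 and 13 had no count in any of the 9 libraries. Groups 1 to 5 held most of the Hox counts of the other organs, with 8288 counts in kidney, 374 in heart and 346 in liver over 15 genes. Hoxa2 did not pass against liver and averaged 0.964 CPM in kidney, 0.266 in heart and 0.724 in liver.

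**Figure D3:**
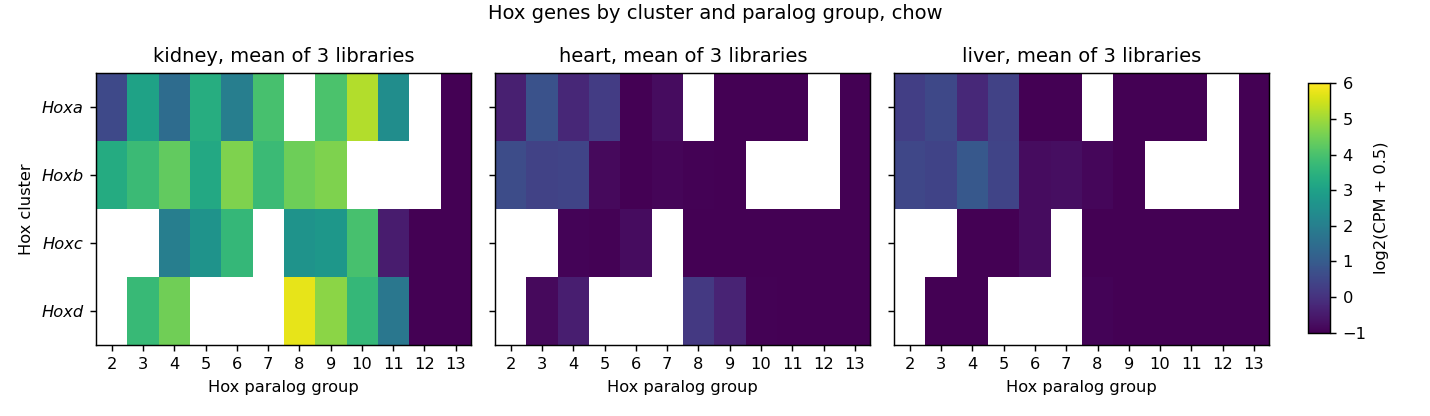
Mean log2(CPM + 0.5) of each Hox gene in kidney, heart and liver (3 libraries each), by cluster (rows) and paralog group from 2 to 13 (columns), with white where there is no such gene in the tables. Kidney shows signal in groups 2 to 11, heart and liver only faintly in groups 2 to 5 and, in heart, Hoxd8 and Hoxd9.

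Most glucose-making genes were higher in kidney than in heart, and their direction against liver depended on the scaling. In gluconeogenesis and fructose use, 13 of 15 genes were higher than heart. Against liver 5 were higher and 8 lower with TMM, against 41.1 and 34.3% of all genes tested. With total counts 7 were higher and 3 lower than liver, against 11243 and 1965 of all 15171 genes. Pck1, the committed step of glucose synthesis, had 753, 685 and 639 CPM in the kidneys, against 0.164, 1.07 and 84.9 in the hearts and 2153, 2757 and 2579 in the livers. Heart replicate 3 was the high heart. The log2 fold change over liver was -1.85 ± 1.53, adjusted p = 0.307, although every liver lay above every kidney, and that over heart was 4.58 ± 1.73, adjusted p = 0.0486. The call over heart was lost when heart replicate 2, any kidney or any liver was left out (4.01 to 4.63). G6pc, which releases free glucose, averaged 212 ± 45.95 CPM in kidney, 0.161 in heart and 882 ± 249 in liver, and Fbp1, the step before it, 643 ± 46.9 CPM in kidney, 0.285 in heart and 1245 ± 127 in liver. For Fbp1 the log2 fold change over liver was -0.95 with TMM and 0.00 with total counts, where it did not pass. Slc2a5, the fructose carrier, was the 1 enriched member (68.3 ± 9.08 CPM in kidney, 0.475 in heart and 5.44 ± 1.17 in liver). Gatm, which makes the precursor of creatine, had 896, 974 and 809 CPM in the kidneys, against 9.37, 7.59 and 6.97 in the hearts and 19.5, 18.8 and 15.5 in the livers, and the next enzyme, Gamt, averaged 13.7 ± 1.24 CPM in kidney, 5.40 ± 1.02 in heart and 215 ± 25.3 in liver, higher than heart and lower than liver. Miox had 1218, 1427 and 1069 CPM in the kidneys, against 0, 0.281 and 0 in the hearts and 0.641, 0.888 and 0.255 in the livers.

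Genes of mitochondrial beta-oxidation were low in kidney against heart, and how many were low against liver depended on the scaling. Of 21 genes, 18 were lower than both heart and liver, against 13.6% of all genes tested, and 9 were with total-count scaling, against 552 of all 15171. Against heart 19 were lower with TMM and 18 with total counts. Against liver 2 were higher and 19 lower with TMM, against 41.1 and 34.3% of all genes tested. With total counts 8 were higher and 9 lower than liver, against 11243 and 1965 of all 15171 genes. Hadha, of the trifunctional enzyme of long chains, averaged 178 ± 9.78 CPM in kidney, 1144 ± 201 in heart and 623 ± 50.7 in liver, a log2 fold change of -2.68 ± 0.15, adjusted p = 3.19e-08, over heart and -1.80 ± 0.15, adjusted p = 6.87e-07, over liver. Acadvl, the first dehydrogenase for very long chains, averaged 193 ± 10.9 CPM in kidney, 849.5 ± 132 in heart and 619.8 ± 31.5 in liver. Acadm, for medium chains, was an exception: it averaged 674 ± 51.5 CPM in kidney, 759.9 ± 114 in heart and 338 ± 5.36 in liver, higher than liver and without a call against heart, while among the ketogenic libraries its value over liver was -0.15. Cpt1a and Cpt1b, the gate to the mitochondrion, followed their organs, with 371 ± 21.6 CPM in kidney, 79.3 ± 10.6 in heart and 711 ± 35.4 in liver for Cpt1a and 38.8 ± 7.34 CPM in kidney, 615 ± 88.4 in heart and 3.92 ± 0.658 in liver for Cpt1b. Cpt1a was lower than liver with TMM (-0.94) and level with total counts (0.01). For 20 genes of the tricarboxylic acid cycle 17 were lower than the mean and 1 higher with TMM, but 5 were lower and 9 higher with total counts. Likewise 23 of 34 oxidative phosphorylation subunits were lower than the mean and 2 higher, but 3 lower and 19 higher with total counts. Over all 15171 genes 38.3% were higher and 31.9% lower than the mean with TMM, and 10574 were higher and 1836 lower with total counts. Against heart alone all 34 subunits were lower with TMM and 33 with total counts. Against liver alone 20 subunits were higher with TMM and 34 with total counts.

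Isoform pairs of the same machines differed by organ. Cox6a1 and Cox8a, the ubiquitous cytochrome oxidase subunits, were higher in kidney than in both, at 362 ± 8.18 CPM in kidney, 109.5 ± 7.78 in heart and 271 ± 3.74 in liver for Cox6a1, whereas the muscle subunits Cox6a2 and Cox7a1 were far lower than heart (1.82 ± 0.385 CPM in kidney, 1041 ± 53.3 in heart and 0.0641 in liver for Cox6a2). The sodium pump subunit Atp1b1 was high, at 1995 ± 129 CPM in kidney, 388 ± 29.4 in heart and 93.4 ± 8.18 in liver. For Atp1b1 kidney exceeded heart by 2.36 ± 0.13, adjusted p = 2.10e-08, and liver by 4.42 ± 0.14, adjusted p = 3.64e-10, on the log2 scale. Of the pump's small regulators Fxyd2 had 1623, 1456 and 1607 CPM in the kidneys, against 2.08, 2.08 and 1.51 in the hearts and 0.192, 0.0592 and 0.128 in the livers, and Fxyd4, that of the collecting duct, averaged 23.2 CPM with no count in heart or liver. Fxyd1, the regulator in muscle, had 4.43, 3.62 and 4.51 CPM in the kidneys, against 219, 217 and 229.5 in the hearts and 176, 176 and 171 in the livers, and was kidney-depleted. Atp4a and Atp12a, proton-potassium pumps, averaged 35.8 ± 2.87 CPM in kidney, 0 in heart and 3.02 ± 1.34 in liver for Atp4a and 1.67 CPM in kidney with no count elsewhere for Atp12a. Ckmt1, the mitochondrial creatine kinase outside muscle, was enriched (42.5 ± 3.37 CPM in kidney, 1.21 ± 1.46 in heart and 0.231 in liver), and the muscle forms Ckm and Ckmt2 were at 0.0284 and 0 CPM in kidney.

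**Figure D4:**
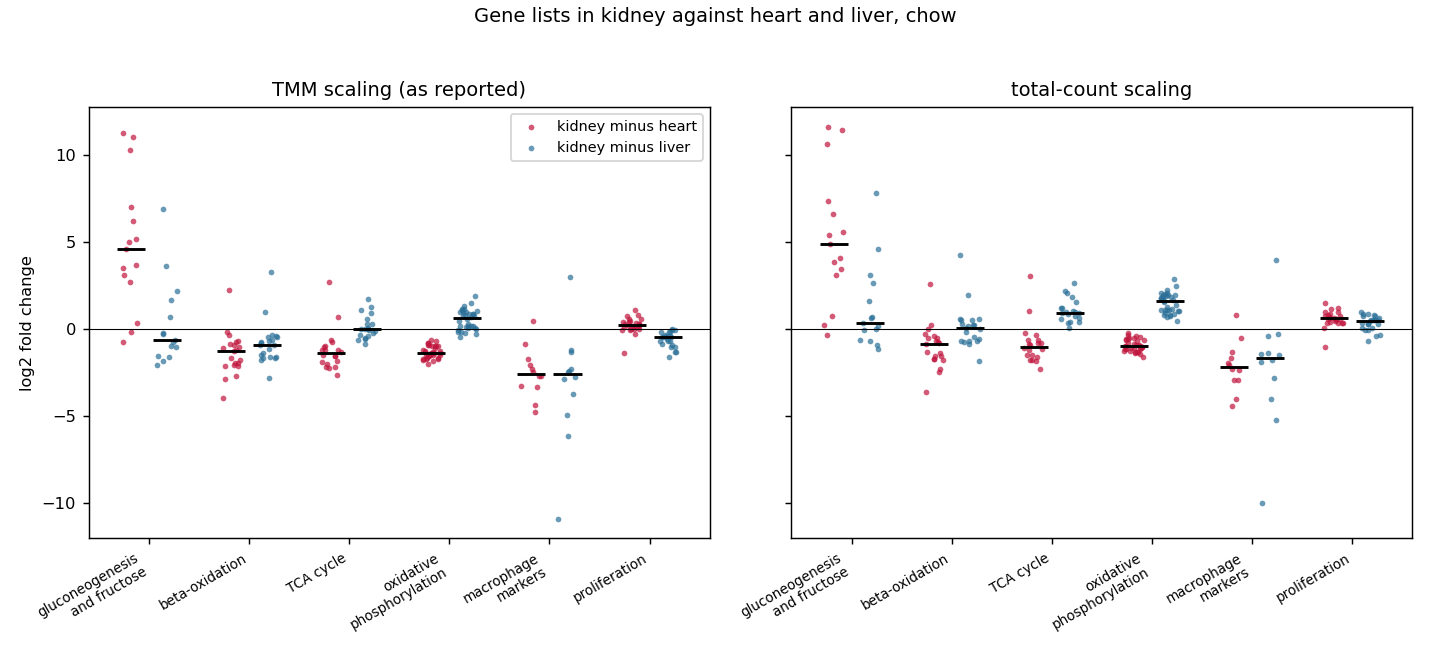
Fitted log2 fold changes of kidney over heart and over liver for the members of 6 gene lists (1 point per gene, black bar for the median), with TMM scaling on the left and total-count scaling on the right. Beta-oxidation and macrophage genes lie mostly below 0 on the left, and the whole cloud stands higher on the right, so that most genes of the tricarboxylic acid (TCA) cycle and of oxidative phosphorylation lie above 0 over liver there.

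The depleted genes that heart and liver held at the highest levels came from several processes. Ndrg2, a differentiation-linked gene, had 62.5, 59.2 and 74.2 CPM in the kidneys, against 984, 995 and 862 in the hearts and 1513, 1492 and 1468 in the livers. Got2, the mitochondrial aspartate aminotransferase, averaged 202 ± 16.4 CPM in kidney, 879 ± 111 in heart and 926 ± 18.6 in liver, and Adck3, a kinase-like protein of coenzyme Q synthesis, 132 ± 7.76 CPM in kidney, 619 ± 66.9 in heart and 934 ± 18.2 in liver. Acacb, the acetyl-CoA carboxylase that makes malonyl-CoA at the mitochondrion, averaged 75.3 ± 12.5 CPM in kidney, 563 ± 36.3 in heart and 491 ± 29.98 in liver. The desmosome protein Dsp averaged 56.2 ± 10.1 CPM in kidney, 1947 ± 209 in heart and 259 ± 30.1 in liver, and Sorbs2, an adaptor of the actin cytoskeleton, 29.8 ± 5.42 CPM in kidney, 514 ± 87.3 in heart and 157 ± 11.2 in liver. Cdh2 (N-cadherin), which joins cells in both heart and liver, had 7.66, 8.06 and 7.195 CPM in the kidneys, against 425, 449 and 329 in the hearts and 188, 196 and 198 in the livers, a log2 fold change of -5.71 ± 0.14, adjusted p = 6.98e-11, over heart and -4.67 ± 0.13, adjusted p = 2.11e-10, over liver. All 3 kidneys lay far below the other 6 libraries for Cdh2, Fxyd1 and Ndrg2. The epithelial relative Cdh1 (E-cadherin) averaged 200.2 ± 10.7 CPM in kidney, 0.110 in heart and 218 ± 1.41 in liver, and Cdh16 and Cdh6 were enriched. The complement protein C3 averaged 36.3 ± 1.07 CPM in kidney, 209 ± 100.1 in heart and 15461 ± 2474 in liver, and the transcription factor Nfix 40.4 ± 2.52 CPM in kidney, 242 ± 16.4 in heart and 177 ± 8.24 in liver.

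Resident macrophage genes were low in kidney against both organs. Of 12 genes, 10 were lower than both with TMM and 9 with total counts, and 8 were depleted, against 1.38% of all genes tested. C1qa had 10.2, 8.49 and 8.41 CPM in the kidneys, against 61.7, 62.2 and 51.4 in the hearts and 48.1, 50.8 and 43.7 in the livers. Cd163, a scavenger receptor, averaged 0.916 CPM in kidney, 25.4 ± 0.902 in heart and 28.3 ± 6.07 in liver, and Mrc1 9.15 ± 2.70 CPM in kidney, 92.04 ± 9.01 in heart and 122 ± 11.1 in liver. Cx3cr1 was the exception, at 6.75 ± 1.41 CPM in kidney, 22.2 ± 4.76 in heart and 0.829 in liver, lower than heart and higher than liver. Of 12 endothelial genes, 3 were higher and 5 lower than the mean of the other organs with TMM, against 38.3 and 31.9% of all genes tested. With total counts 8 were higher and 2 lower, against 10574 and 1836 of all 15171 genes. Against heart 11 of the 12 were lower with TMM and 10 with total counts, and 7 were higher than liver with TMM and 11 with total counts. Emcn (endomucin) was the 1 higher than both (59.2 ± 2.05 CPM in kidney, 48.9 ± 2.96 in heart and 3.01 ± 0.120 in liver). Its call over heart was lost in a model of all 18 libraries (0.27 on the log2 scale), among the ketogenic libraries (0.28) and against a 2-fold change. Of 24 proliferation genes 1 passed against the mean, Cenpf, lower in kidney (16.3 ± 3.73 CPM in kidney, 42.9 ± 8.17 in heart and 21.4 ± 4.60 in liver), and with total counts 8 were higher. Against liver 0 were higher and 10 lower with TMM, against 41.1 and 34.3% of all genes tested. With total counts 6 were higher and 1 lower than liver, against 11243 and 1965 of all 15171 genes. Against heart 3 were higher and 1 lower with TMM. Mki67 averaged 54.4 ± 12.1 CPM in kidney, 48.4 ± 21.9 in heart and 72.5 ± 19.9 in liver.

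The genes that stood farthest between the organs were markers of heart or liver at a low level in kidney. Above heart and below liver, Apob, the protein of liver lipoproteins, had 274, 184 and 229 CPM in the kidneys, against 2.74, 1.12 and 2.53 in the hearts and 25157, 23299 and 20558 in the livers, and Apoc3, C8a, Ttr and Hpd averaged 15.2, 10.46, 87.8 and 14.2 CPM in kidney, against 1392, 998, 8776 and 2076 CPM in liver. Below heart and above liver, Ryr2, the calcium release channel of heart muscle, averaged 6.11 ± 1.66 CPM in kidney, 4721 ± 309 in heart and 0 in liver. Myom2, Fhl2 and Fabp3 averaged 17.1, 25.6 and 53.98 CPM in kidney, against 1085, 1589.6 and 1949.9 CPM in heart. Cox8b, of muscle and brown fat, had 0.553, 5.97 and 9.27 CPM in the kidneys, against 662, 588 and 608 in the hearts and 0 in all 3 livers, and its call against liver was lost without heart replicate 2 (9.75), heart replicate 3 (9.69) or kidney replicate 2 (9.60).

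The 3 kidneys were close to each other. Over 10894 named genes of at least 4 CPM in kidney, the SD of log2(CPM + 0.5) over the 3 kidneys had a median of 0.099, and it passed 1 at 12 genes. The widest were fat genes, liver albumin and 1 kallikrein. Cfd (adipsin) had 1.83, 40.5 and 23.5 CPM, Plin1 0.808, 9.12 and 9.39, Adipoq (adiponectin) 0.511, 6.18 and 6.91, Cidec 0.511, 7.08 and 6.02 and Ucp1, the uncoupling protein of brown fat, 3.06, 17.9 and 25.2 CPM in kidney 1, 2 and 3. Kidney 1 was the low one each time, as it was for Cox8b. In the hearts the 5 genes were high in replicate 3 alone. Of 11 fat genes 10 were tested, none was higher than the mean and 2 were lower; without heart replicate 3, 6 were higher and 2 lower, and with total counts 2 higher and 1 lower. Alb had 11.7, 5.71 and 57.7 CPM in the kidneys, with kidney 3 high, against 132596 CPM in liver. Klk1b3 had 23.7, 1.41 and 21.8 CPM, with kidney 2 low, and no count in heart or liver. Whether tissue taken along with the kidney has a part in these values was not tested.

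**Figure D5:**
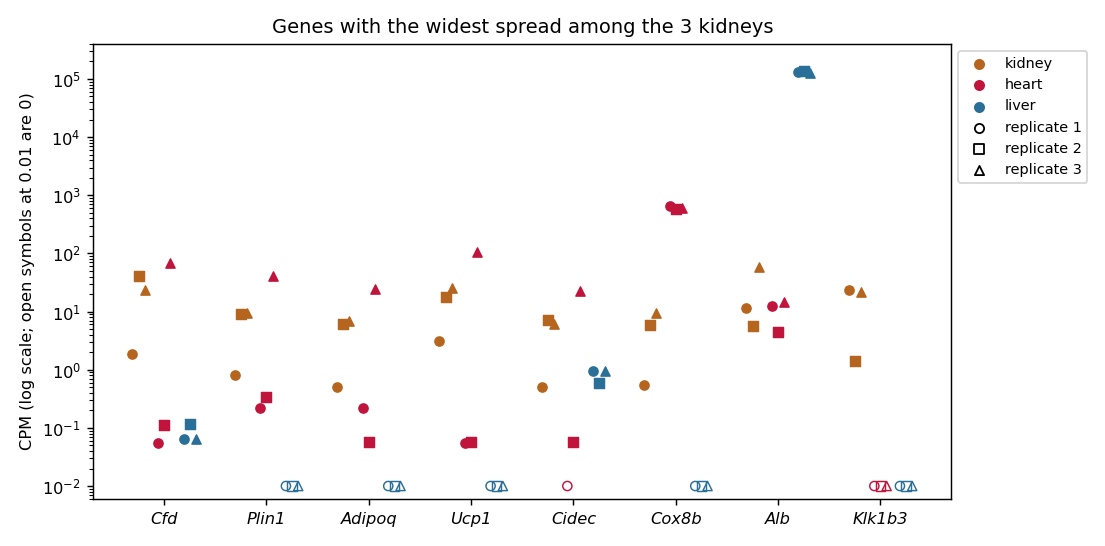
CPM (log axis) of the 8 genes with the largest spread among the 3 kidneys, in each kidney, heart and liver library, with marker shape for the replicate and open symbols for 0. For the first 6 genes kidney 1 lies below kidneys 2 and 3, and heart replicate 3 lies above the other hearts for the first 5.

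Markers of the urinary lining were present at low levels. Of 10 urothelium genes 9 were tested and 6 enriched. Upk3a, a protein of the urinary lining, had 58, 82 and 145 counts in the kidneys and none in the other 6 libraries, and Krt7, which the collecting duct also expresses, averaged 73.1 ± 3.37 CPM in kidney, 4.59 ± 3.99 in heart and 1.19 ± 0.424 in liver. Of 14 adrenal genes 4 were tested, none was higher than the mean and 1 was lower, and with total counts 2 were higher. The steroid enzymes Cyp11a1 and Cyp11b1 averaged 0.381 and 0.213 CPM in kidney.

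The same contrasts among the 9 ketogenic libraries gave 1146 enriched and 205 depleted genes. In every fit of the ketogenic libraries alone, replicates 1 and 2 of heart were summed into 1 library, and likewise those of liver. The model of all 18 libraries kept them apart. Of the 1045 chow-enriched genes 902 were enriched there as well, which is 86.3% of the chow list and 78.7% of the ketogenic one. Of the 209 depleted genes 131 were, 62.7% of the chow list and 63.9% of the other. These 2 sets share no library.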

How the data were processed

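RNA-seq of organ tissue gave 18 libraries, of which the 9 chow libraries (3 each of kidney, heart and liver) carry the report and the 9 ketogenic ones serve as a second set. Per the labels' protocols, libraries were made with an NEB stranded mRNA kit from RNA of an integrity number above 4. Per the file headers, the authors counted read pairs over mm9 exons with featureCounts 1.5.0, which split multi-mapping and overlapping reads, so the deposited values are fractional estimated counts, and 46.2 to 60.1% of each library's count lies in genes with a fraction. HISAT2 2.1.0 is named in the submitters' processing notes. The counts were rounded to whole numbers, which changed no library's total by more than 0.000664%.

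Genes were kept by filterByExpr, scaled by TMM and fitted in 1 edgeR 4.0.16 quasi-likelihood model (R 4.3.3) with Benjamini-Hochberg adjustment over 15171 genes; a standard error is the log2 fold change over the root of F. Tests on simulated data of 14922 genes found 92% of 2-fold changes for kidney against the mean, and 4.92% of calls were false. False calls were 4.57% against heart and 8.2% against liver. In the simulated data all libraries shared 1 mean profile, apart from 50 genes per fold size changed in kidney. The tests therefore cannot show how the scaling behaves between organs that differ at most genes. Per-library values are CPM; total counts were 17198629 to 23835383. The labels do not say whether replicates are separate animals for each organ, so p-values measure the spread between these samples. The replicate numbers were not used as pairs in the main model.

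The choice to describe these libraries, the gene lists and the naming rules were made with earlier results of these data known. Named genes are fixed anchors, the most abundant and the most selective enriched genes, and the depleted genes most abundant in the other organs. Also named are the in-between genes farthest from both organs, the widest among kidneys and up to 5 members of each list. Other genes were named after their values were seen. Alternatives were DESeq2 1.42.0, limma-voom 3.58.1, total-count scaling, other filters, a replicate block and leaving out each library. Some genes of the lists are counted but not reported here by name.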

Additional observations from a re-analysis of the deposited data

How the results depend on the processing

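The counts of calls moved most with the scaling, with a test against a 2-fold change, and with the set of genes. With total-count scaling 10574 genes were higher and 1836 lower than the mean, 11243 higher and 1965 lower than liver, 6288 above both, 552 below both, 120 depleted and 862 above heart and below liver, and 39 list members were below both. The test against a 2-fold change gave 2619 higher and 1322 lower than the mean, 2754 and 2166 for heart, 3332 and 2003 for liver, 1358 above both, 383 below both, 424 above heart and below liver, 529 below heart and above liver, and 32 list members below both. Genes with whole counts alone, a smaller set by construction, gave 2625 and 2043 for the mean, 2524 and 2346 for heart, 2832 and 2251 for liver, 1401 above both, 879 below both, 625 enriched, 127 depleted, 579 and 741 between, and 111 and 12 list members above and below both. A log2 fold change of 3 left 88 depleted genes.

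Leaving out 1 library in turn gave 5384 to 6178 higher and 4447 to 4978 lower than the mean, 5375 to 5990 and 4981 to 5354 for heart, 5861 to 6550 and 4956 to 5466 for liver, 2662 to 3247 above both, 1843 to 2162 below both, 1054 to 1177 enriched and 207 to 223 depleted. The counts between the organs were 1459 to 1741 and 1676 to 1977, and list members above and below both 250 to 269 and 66 to 77. The replicate block gave 5814 higher and 4799 lower than the mean, 2968 above both, 1054 enriched and 212 depleted. Samples of the same number correlated at -0.022 to 0.171, and 2 of 9 pairs passed 0.1. Each kidney correlated best with the heart of its own number (0.134, 0.084 and 0.171 for kidney 1, 2 and 3). In both other organs 4 of 9 samples correlated best with their own number. Whether the numbers mark pairs is not settled by these values, and they were not used as pairs in the main model. The block ended the calls for Cox8b over liver and for Pck1 and Myl7 over heart among the named genes.

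Over 188 named genes with 356 calls, 6748 of 6833 values under alternatives kept direction and call, 75 lost the call and 10 turned. Some list directions turned too. With total counts the tricarboxylic acid cycle had 9 higher and 5 lower, oxidative phosphorylation 19 and 3, endothelium 8 and 2, adrenal genes 2 and 0, fat genes 2 and 1 and proliferation 8 and 0. Over all 15171 genes, 10574 were higher and 1836 lower on that scale. Fat genes had 3 higher and 2 lower with DESeq2, 4 and 1 among ketogenic libraries and 6 and 2 without heart replicate 3. Adrenal genes had 3 and 1 with no filter, and proliferation 5 and 3 among ketogenic libraries and 2 and 1 without liver replicate 2. Over liver, total counts gave log2 fold changes of 0.38 for Anpep, 0.30 for Cldn12, 0.01 for Cpt1a, 0.16 for Ctsb, 0.18 for Dpp4, 0.09 for Hnf4a and 0.66 for Nr3c2, which was 0.04 over heart. Ketogenic libraries gave -0.15 for Acadm over liver, and Myl7 over heart ranged from -10.14 to 0.23 when 1 library was left out, the highest without heart replicate 3. The cause was not tested. Genes at or near 0 in heart or liver limit the depth of any ratio.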
